A study of Mus musculus with 7 samples.

Results

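Axon guidance ligands and receptors were measured in the dental epithelium of the lower incisor of newborn mice, in K14;Nogo-A pups and wild-type pups. The genes were chosen by symbol, from the families of the ephrins (Efna, Efnb) and Eph receptors (Epha, Ephb), the semaphorins of classes 3 to 7, the plexins, the neuropilins, Slit and Robo, the netrins and netrin-G, Unc5 and the repulsive guidance molecules (Rgm), together with Dcc and Neo1. A gene was kept where at least 2 of the 7 libraries held 10 counts or more. Of 25700 genes counted, 75 carried such a symbol and 69 were kept, and the 69 were part of the 14791 genes tested. The 6 others were Epha5, Epha8, Epha10, Robo3, Unc5cl and the netrin receptor gene Dcc, which had between 0 and 14 counts per library. Just inside this limit, Epha6 and Plxnb3 reached 10 counts in 3 libraries, and just outside it Epha5 had 14 counts in wild-type replicate 3 and 1 to 9 in each other library. Dcc had 0, 1, 0 and 3 counts in K14;Nogo-A and 7, 9 and 4 in wild-type, too few for a fold change. One of the 69, Unc50, matches by its name only. It encodes a Golgi protein, and it is counted with the 69 but with neither the ligands nor the receptors.

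Guidance cues are signals that turn, attract or repel a moving cell or a growing axon. Ephrins sit on the surface of one cell and bind Eph receptor tyrosine kinases on its neighbour, so that both cells can respond. Secreted class 3 semaphorins bind neuropilins, which pair with plexins, while most semaphorins of the other classes are membrane proteins that bind plexins directly. Slits are secreted and bind Robo receptors. Netrin-1 binds Dcc, neogenin (Neo1) and the Unc5 receptors, and the repulsive guidance molecules bind neogenin. These families also act outside the nervous system, in cell sorting, in epithelial boundaries and in vessels, and in developing teeth they are known for steering the sensory innervation.

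The K14;Nogo-A pups were labelled K14cre cre/+; Nogo-A fl/fl, so that Cre driven by the keratin 14 promoter acts in K14-expressing epithelial cells, while mesenchyme, vessels and nerves, in which this promoter is not known to act, keep the floxed Rtn4 allele. The controls were labelled wt, with no further allele named, and the study describes them as littermates. Each library held the Dispase-separated epithelium of the left and right lower incisors of 1 pup at postnatal day 0, and the series places the sampled piece in its posterior part. There were 4 K14;Nogo-A libraries (replicates 1, 2, 7 and 10) and 3 wild-type libraries (replicates 3, 8 and 9), of the 4 pups per genotype in the study. The fourth wild-type pup was not analysed here. Values per library are given below in this replicate order.

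The libraries held 20929207 to 41219439 counts. Rtn4, the gene of Nogo-A, was at 327 ± 21.3 CPM (counts scaled to library size by TMM, SD, n = 4) in K14;Nogo-A against 301 ± 39.1 CPM (SD, n = 3) in wild-type, with a log2 fold change of 0.12 ± 0.11 (SE) and an exact two-sided permutation p of 0.257, where 0.0286 is the smallest p possible. Because transcripts that never held the floxed exon are counted too, this level is no test of the deletion. Epithelium markers were present in every library, with summed levels of 9175 to 10764 CPM in K14;Nogo-A against 6599 to 10597 CPM in wild-type. Markers of other cells were present as well. They and the guidance genes are counted as higher or lower past the thresholds of the study, which were an unadjusted P up to 0.05 together with a log2 fold change of 0.5 or larger in size. Of all genes tested, 2.74% were lower and 2.02% higher past these thresholds. The 21 mesenchyme markers had negative log2 fold changes throughout, with a median of -0.49 and 4 lower genes. At an unadjusted p under 0.05 by edgeR's quasi-likelihood test, 12 were lower (57.1%, against 6.66% of all genes tested). In 10 the K14;Nogo-A libraries lay below the wild-type libraries (47.6%, against 6.09%). The mean log2 CPM of the 21 markers lay at 7.62 to 7.87 in K14;Nogo-A against 8.18 to 8.36 in wild-type. Their summed level was 14264 to 37972 CPM in K14;Nogo-A against 31393 to 47339 CPM in wild-type. The 6 tested odontoblast and bone markers had a median of -0.71. The endothelium markers had a median of -0.27 with 4 of 12 lower, and the immune markers one of -0.33 with 1 of 12 lower. Of the 13 tested Schwann cell and neuron markers 2 were higher and the median was 0.02. Among the neuronal markers Elavl3, Snap25, Prph and Nefl had under 10 counts in each library. Others were present, with Tubb3 at means of 428 CPM in K14;Nogo-A and 411 CPM in wild-type, and Stmn2 at 16.5 and 14.9 CPM. Elavl4 was at 0.64 and 0.72 CPM, and Nefm at 0.065 and 0.218 CPM. The ameloblast markers had a median of 1.30 with 3 of 8 higher, the epithelium markers one of 0.25 with 3 of 13 higher, and the 5 tested skeletal muscle markers one of 0.40 with 1 higher. Y-linked transcripts were present in K14;Nogo-A replicate 1 and wild-type replicates 3 and 8 and near absent in the other 4 libraries. In such bulk samples fewer cells of a type and less RNA per cell cannot be told apart.

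The guidance genes that differed were lower in K14;Nogo-A more often than higher. Past the study's thresholds, 8 of 69 were lower in K14;Nogo-A (11.6%, against 2.74% of all genes tested) and 1 was higher (1.45%, against 2.02%). The 8 lower genes were the secreted cues Slit2, Slit3 and Ntn1, the membrane semaphorin Sema6d, and the receptors Epha3, Ephb2, Nrp1 and Plxnb3. The single higher gene was the receptor Ephb3. Of the others, 4 higher and 8 lower genes had an unadjusted P up to 0.05 with a smaller fold, Plxna4 had a larger fold with a P above 0.05, and 47 had neither, with values from -0.44 (Sema7a) to 0.40 (Slit1). Besides genes described below, these 47 hold Efna3, Efna5, Efnb2, Efnb3, Sema3g, Sema4a, Sema5b, Sema6b, Sema7a, Plxna2, Plxna3, Plxnc1, Ntng2, Unc5a and Unc5d. Over the 69 genes 45 log2 fold changes were negative and 24 positive, with a median of -0.10, beside -0.01 for all genes tested. Without wild-type replicate 9, 36 of the values were negative and the median was -0.02. Plxnb3 entered the test only because wild-type libraries reached 10 counts, as did Epha6, and the other 7 lower genes reached this level in both genotypes.

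No guidance gene reached an adjusted p under 0.05 in edgeR's quasi-likelihood test (0 of 69, against 0.0338% of all genes tested), and the smallest adjusted p was 0.090, for Slit3. At an unadjusted p under 0.05 there were 5 higher guidance genes (7.25%, against 6.25% of all genes tested) and 16 lower ones (23.2%, against 6.66%). By edgeR's likelihood-ratio test 4 were lower at an adjusted p under 0.05 (Epha3, Nrp1, Sema6d and Slit3), where the test called 1.12% of all genes in either direction. DESeq2 called 5 (the same with Slit2, against 1.95% of all genes), and limma-voom 0 (against 0.027%). In 11 genes the 4 K14;Nogo-A libraries lay below the 3 wild-type libraries (15.9%, against 6.09% of all genes tested), and in 4 they lay above (5.80%, against 5.43%). Ligands and receptors had similar medians, at -0.13 for the 38 ligands, with 4 lower and 0 higher, and at -0.11 for the 30 receptors, with 4 lower and 1 higher. The secreted cues (class 3 semaphorins, Slits and netrins) had a median of -0.20 with 3 of 13 lower, the semaphorins of all classes one of -0.20 with 1 of 20 lower, and the 8 ephrins one of 0.02 with none past the thresholds in either direction by edgeR's quasi-likelihood test. In the plot of fold changes by class, the ephrins lie close to 0, while Slit2, Slit3 and both neuropilins lie to its left.

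**Figure D1:**
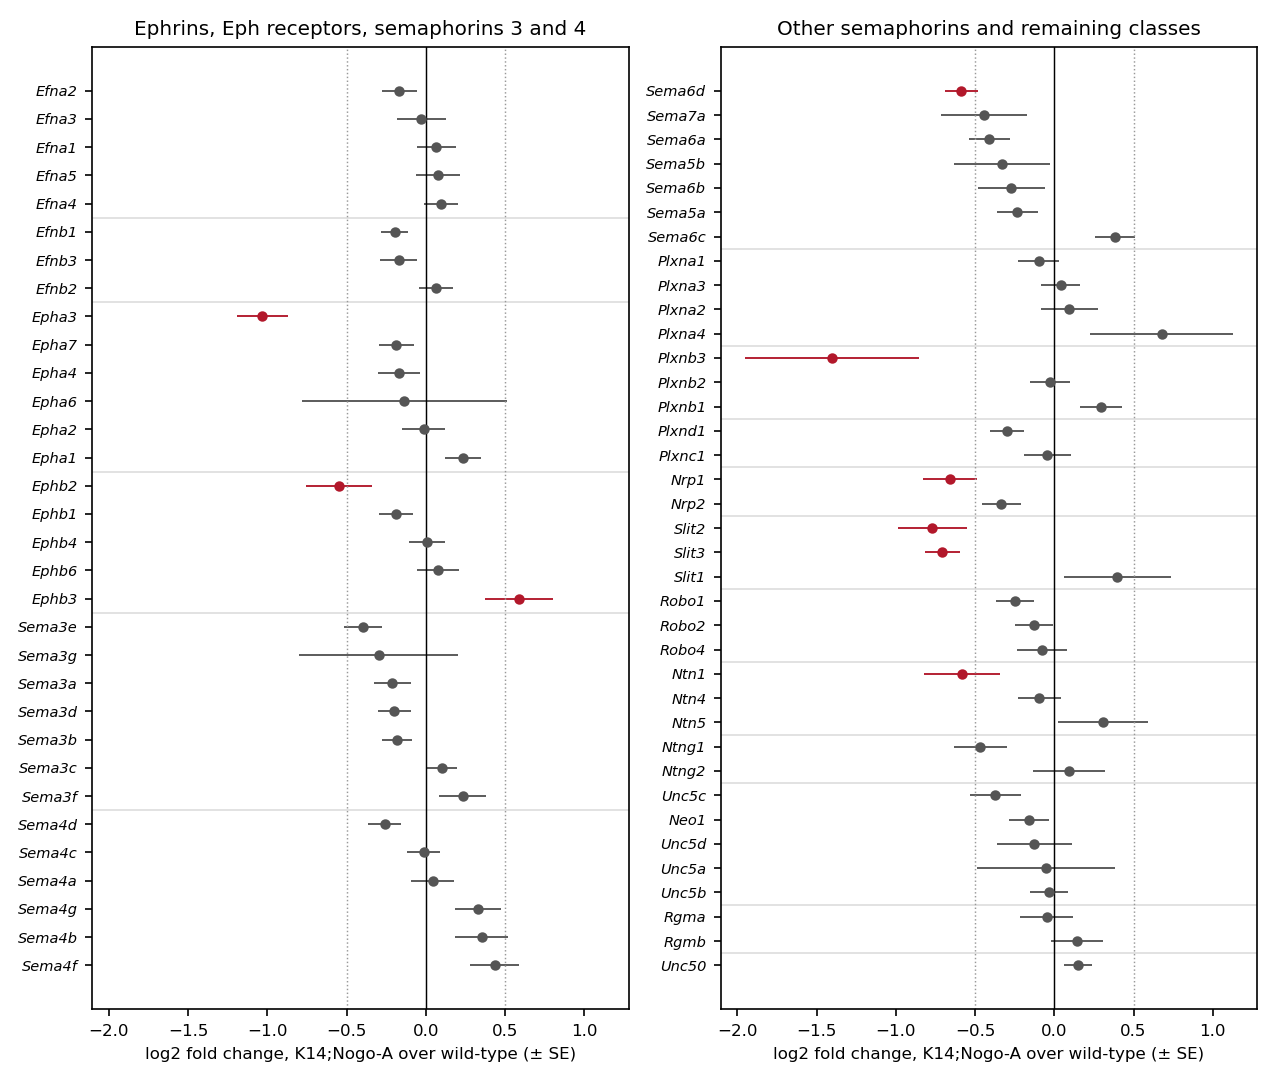
Log2 fold change of each of the 69 genes, K14;Nogo-A (n = 4) over wild-type (n = 3), with bars of 1 SE from edgeR's quasi-likelihood fit; grey lines part the classes, dotted lines mark 0.5 in size, and red marks the 9 genes past the study's thresholds. Plxnb3 at -1.40 and Epha3 at -1.03 lie farthest to the left, and Plxna4, at 0.68 with an SE of 0.45, farthest to the right.

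Levels between genes were compared as CPM per kilobase of annotated exons, as means over the 7 libraries. By this measure the netrin receptor gene Unc5b was the most abundant guidance gene at 97.2 CPM per kilobase, followed by Plxnb2 at 53.7, the ephrin gene Efna1 at 47.2, Efnb1 at 36.0, Neo1 at 35.3 and Ephb4 at 30.5. Of the 69 genes, 60 were at 1 CPM per kilobase or more. The member that led its class did so in all 7 libraries in 16 of the 17 ligand and receptor classes, and Plxnd1 led Plxnc1 in 6 of 7. None of the leading genes except Slit3 was past the study's thresholds, as the plot of levels shows.

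**Figure D2:**
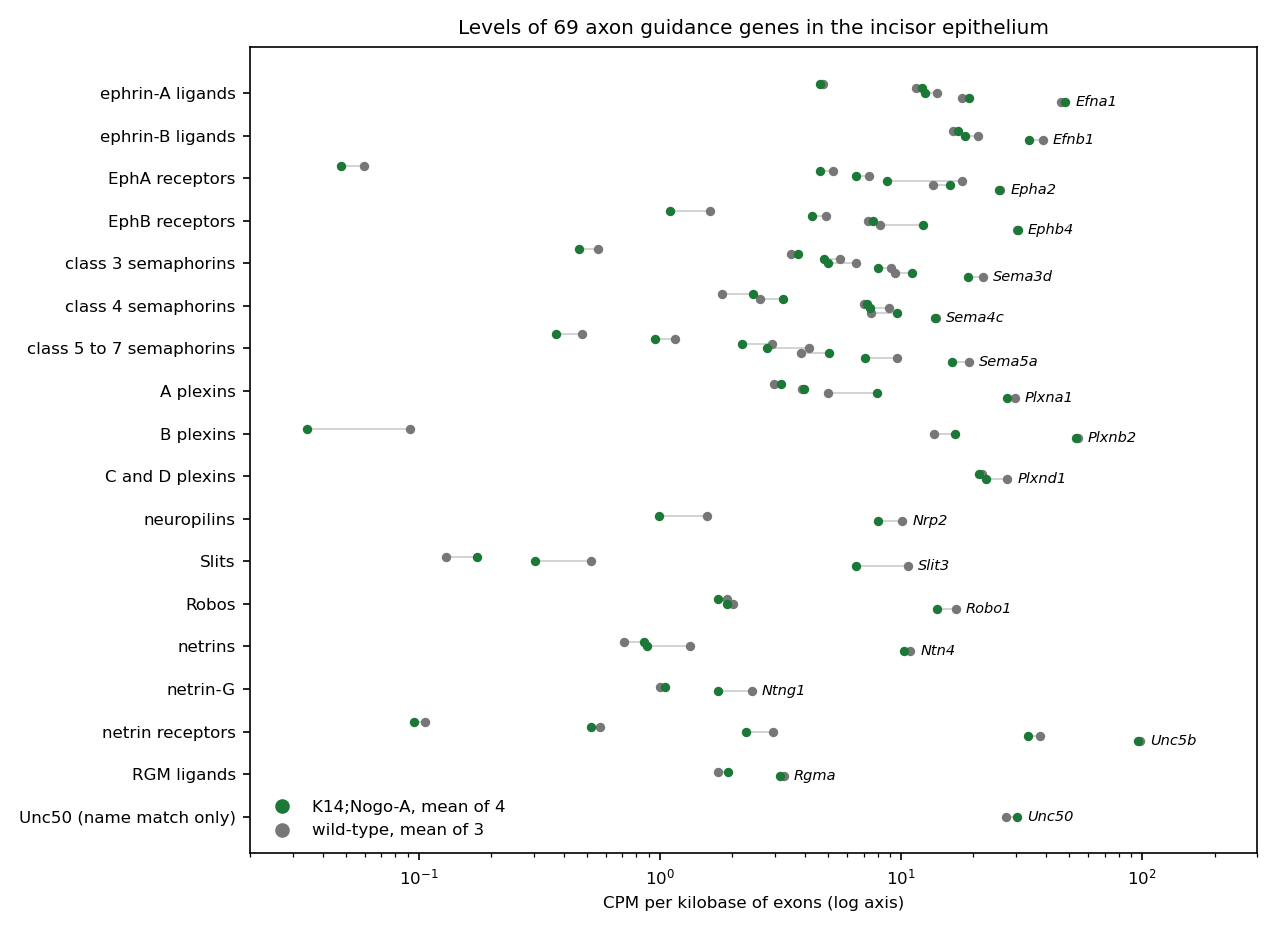
Mean level of each guidance gene in CPM per kilobase of exons (horizontal log axis) by class, with K14;Nogo-A (mean of 4 libraries) in green and wild-type (mean of 3) in grey, each pair joined by a line and the leading gene of each class named. Pairs lie close together for Unc5b, Plxnb2 and Efna1, and Slit3 stands at 6.52 in K14;Nogo-A against 10.7 in wild-type.

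Among the Eph receptors, 1 gene of each class was lower and 1 EphB gene higher. Epha3 (ENSMUSG00000052504, chromosome 16 from 63543534 to 63864175 of GRCm38), an EphA receptor that binds ephrin-A ligands, was at 73.6, 69.1, 99.5 and 62.2 CPM in K14;Nogo-A against 134, 186 and 147 CPM in wild-type. The K14;Nogo-A libraries lay below the wild-type libraries without overlap. Its log2 fold change was -1.03 ± 0.16 (SE, edgeR's quasi-likelihood test, adjusted p = 0.093), which is a fitted level of 48.9% of wild-type. In the wild-type libraries Epha3 was the second EphA receptor gene by level, at 17.9 CPM per kilobase after Epha2 at 25.9. In K14;Nogo-A, at 8.75, it came after Epha2 at 25.6 and Epha1 at 16.1. Epha2, a receptor of epithelial cells, was at 94.6 to 140 CPM in K14;Nogo-A against 104 to 141 CPM in wild-type, and its log2 fold change was -0.01 ± 0.14. Epha1, Epha4 and Epha7 were within 0.24 of 0 on the log2 scale, and Epha6 was near the limit of counting.

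The EphB receptors, which bind ephrin-B ligands, went both ways. Ephb3 (ENSMUSG00000005958, chromosome 16 from 21204755 to 21223305) was at 49.4, 104.9, 86.8 and 86.8 CPM in K14;Nogo-A against 52.6, 50.5 and 60.7 CPM in wild-type. Replicates 2, 7 and 10 stood above the wild-type libraries, and replicate 1 stood below them. This is a log2 fold change of 0.59 ± 0.21 (adjusted p = 0.30), or a fitted level of 150.4% of wild-type. Leaving out 1 library took it inside the thresholds for replicates 2 (0.45) and 10 (0.56) of K14;Nogo-A and for replicates 3 (0.56) and 8 (0.54) of wild-type. Without K14;Nogo-A replicate 1 it was 0.77, with an adjusted p of 0.013 by edgeR's quasi-likelihood test. That fit called 221 of 14771 genes at an adjusted p under 0.05. Ephb2 (ENSMUSG00000028664, chromosome 4 from 136647539 to 136835988) was at 8.77, 14.7, 18.4 and 13.7 CPM against 17.1, 21.6 and 22.5 CPM. Replicate 7 reached above the lowest wild-type library, and replicate 1 was the lowest of the 7. The log2 fold change was -0.55 ± 0.21 (adjusted p = 0.31), and it was not past the thresholds when replicate 1 of K14;Nogo-A (-0.38) or replicate 8 (-0.50) or 9 (-0.47) of wild-type was left out. Ephb4, the leading EphB gene and a receptor known from veins, was at 112, 149, 152 and 154 CPM against 140, 142 and 142 CPM, with a log2 fold change of 0.01 ± 0.11. Ephb1 and Ephb6 had -0.19 ± 0.11 and 0.08 ± 0.13.

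The ephrins differed little between the genotypes. Efna1, the leading ephrin-A gene, was at 82.5, 77.0, 92.0 and 101 CPM against 73.9, 80.6 and 98.2 CPM, and its log2 fold change was 0.07 ± 0.12. The other 4 ephrin-A genes lay between -0.17 (Efna2) and 0.10 (Efna4). Efnb1, a transmembrane ephrin, was at 108 to 122 CPM in K14;Nogo-A against 130 to 141 CPM in wild-type. Its libraries did not overlap, but the log2 fold change was only -0.20 ± 0.08 (adjusted p = 0.36). The summed ephrin-A level was 89.9 to 103 CPM per kilobase in K14;Nogo-A against 90.1 to 98.6 in wild-type, and the summed EphA receptor level was 51.3 to 66.5 against 63.6 to 73.4.

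The neuropilins, the co-receptors of class 3 semaphorins, were both lower in K14;Nogo-A at an unadjusted p under 0.05. Nrp1 (ENSMUSG00000025810, chromosome 8 from 128358604 to 128503363), which endothelial cells also use as a VEGF co-receptor, was at 7.89, 11.1, 11.9 and 7.86 CPM in K14;Nogo-A against 14.1, 16.8 and 15.1 CPM in wild-type. The genotypes did not overlap. Its log2 fold change was -0.66 ± 0.17 (adjusted p = 0.20). Nrp2, at 8.95 CPM per kilobase the more abundant of the pair, was at 89.1, 102, 109.8 and 80.7 CPM against 115, 139 and 106 CPM, with -0.33 ± 0.12 (adjusted p = 0.30), under the fold threshold, and -0.21 without wild-type replicate 8. Replicate 7 of K14;Nogo-A overlapped wild-type replicate 9. The summed neuropilin level was 7.61 to 10.49 CPM per kilobase in K14;Nogo-A against 10.50 to 13.5 in wild-type. Endothelium markers had a median of -0.27 and mesenchyme markers one of -0.49 in the same libraries, and their part in these differences was not tested.

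The class 3 semaphorins, which bind these co-receptors, were not past the thresholds. Their leading gene Sema3d was at 174, 167, 143 and 171 CPM in K14;Nogo-A against 195, 166 and 202 CPM in wild-type (log2 fold change -0.20 ± 0.10). Sema3e, which binds Plxnd1 without a neuropilin, was at 47.3, 46.6, 38.1 and 52.6 CPM against 69.2, 56.9 and 56.0 CPM, without overlap, and had -0.40 ± 0.12 (adjusted p = 0.25). Its receptor gene Plxnd1 was at 139.9, 159, 184 and 174 CPM against 191, 194 and 221 CPM, also without overlap, and had -0.30 ± 0.11 (adjusted p = 0.29). Sema3a, the repellent of sensory axons, had -0.21 ± 0.12 and Sema3b -0.18 ± 0.09. Sema3c and Sema3f had positive values, of 0.10 ± 0.10 and 0.23 ± 0.15.

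Among the membrane semaphorins, class 6 held the one gene past the thresholds. Sema6d (ENSMUSG00000027200, chromosome 2 from 124089969 to 124667770), a ligand of Plxna1, was at 27.7, 30.2, 28.2 and 30.9 CPM in K14;Nogo-A against 49.1, 43.9 and 38.8 CPM in wild-type. The 4 K14;Nogo-A values were close together and below the wild-type values. Its log2 fold change was -0.59 ± 0.11 (adjusted p = 0.13), and -0.50 without wild-type replicate 3, just under the fold threshold. Sema6a was lower in the same way, at 17.9 to 20.6 CPM against 21.3 to 29.5 CPM (-0.41 ± 0.13), and came past the thresholds without wild-type replicate 9. Sema6c was higher, at 28.5 to 30.4 CPM against 18.1 to 25.8 CPM, without overlap (0.38 ± 0.13, adjusted p = 0.27). Sema5a, the leading gene of classes 5 to 7, had -0.23 ± 0.13.

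The class 4 semaphorins had the highest median of the classes with more than 2 genes, at 0.19, with 4 of 6 positive but none past the thresholds. Sema4f had 0.43 ± 0.15 and did not overlap between the genotypes, at 10.3 to 15.1 CPM against 8.77 to 9.95 CPM, and it was past the thresholds without K14;Nogo-A replicate 1 (0.53). Sema4g had 0.33 ± 0.14 and Sema4b 0.35 ± 0.17. Sema4d, a ligand of Plxnb1, was lower at 52.3 to 62.7 CPM against 65.0 to 75.1 CPM (-0.26 ± 0.10), while Plxnb1 itself had 0.29 ± 0.13 (136, 177, 168 and 161 CPM against 122, 112 and 159 CPM). The leading gene Sema4c had -0.01 ± 0.10.

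The plexins, the signalling receptors of semaphorins, were lower past the thresholds only in Plxnb3, the least abundant of them. Plxnb3 (ENSMUSG00000031385, chromosome X from 73757090 to 73772514) had 4, 5, 13 and 1 counts in K14;Nogo-A against 24, 34 and 8 counts in wild-type. On the CPM scale these are 0.185, 0.221, 0.453 and 0.038 against 0.573, 0.828 and 0.384, with overlap between K14;Nogo-A replicate 7 and wild-type replicate 9. The log2 fold change of -1.40 had an SE of 0.55 (adjusted p = 0.32) and missed the thresholds once replicate 2 (-1.39) or 10 (-1.04) of K14;Nogo-A or replicate 8 of wild-type (-1.09) was left out. Plxna4, a partner of neuropilins, was at 54.1, 158, 115 and 122 CPM in K14;Nogo-A against 65.1, 43.1 and 103 CPM in wild-type. Its values spread widely within both genotypes and overlapped. The log2 fold change of 0.68 ± 0.45 had an unadjusted p of 0.184. It was 1.06 without wild-type replicate 9, 0.42 without wild-type replicate 8, and 0.91 and past the thresholds without K14;Nogo-A replicate 1. The abundant Plxnb2 and Plxna1 had -0.03 ± 0.13 and -0.10 ± 0.13.

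Slit2 and Slit3, both secreted ligands of Robo receptors, were lower in K14;Nogo-A, and both were without overlap. Slit3 (ENSMUSG00000056427, chromosome 11 from 35121224 to 35708507) was at 34.4, 40.8, 40.5 and 42.6 CPM in K14;Nogo-A against 58.7, 61.8 and 73.6 CPM in wild-type. The highest K14;Nogo-A value was well under the lowest wild-type value. Slit3 had a log2 fold change of -0.71 ± 0.11 (adjusted p = 0.090), a fitted level of 61.3% of wild-type. Slit2 (ENSMUSG00000031558, chromosome 5 from 47983138 to 48307733) was at 6.83, 6.06, 11.1 and 6.94 CPM against 16.5, 11.6 and 11.5 CPM, and its highest K14;Nogo-A library, replicate 7, lay just under the lowest wild-type library. Its log2 fold change was -0.77 ± 0.22 (adjusted p = 0.22). Slit1 was near the limit of counting, at 0.698 to 1.48 CPM against 0.644 to 0.95 CPM (0.40 ± 0.34).

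Slit3 made up 93.8% of the summed Slit level per kilobase. The sum was 6.19 to 7.48 CPM per kilobase in the K14;Nogo-A libraries and 10.4 to 12.7 in the wild-type libraries. No Robo gene was past the thresholds. Robo1, which made up 80.3% of the summed Robo level, was at 195, 254, 217 and 271 CPM in K14;Nogo-A against 257, 274 and 304 CPM in wild-type (-0.25 ± 0.12, adjusted p = 0.42). Robo2 had -0.13 ± 0.12 and the endothelial receptor gene Robo4 -0.08 ± 0.16.

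**Figure D3:**
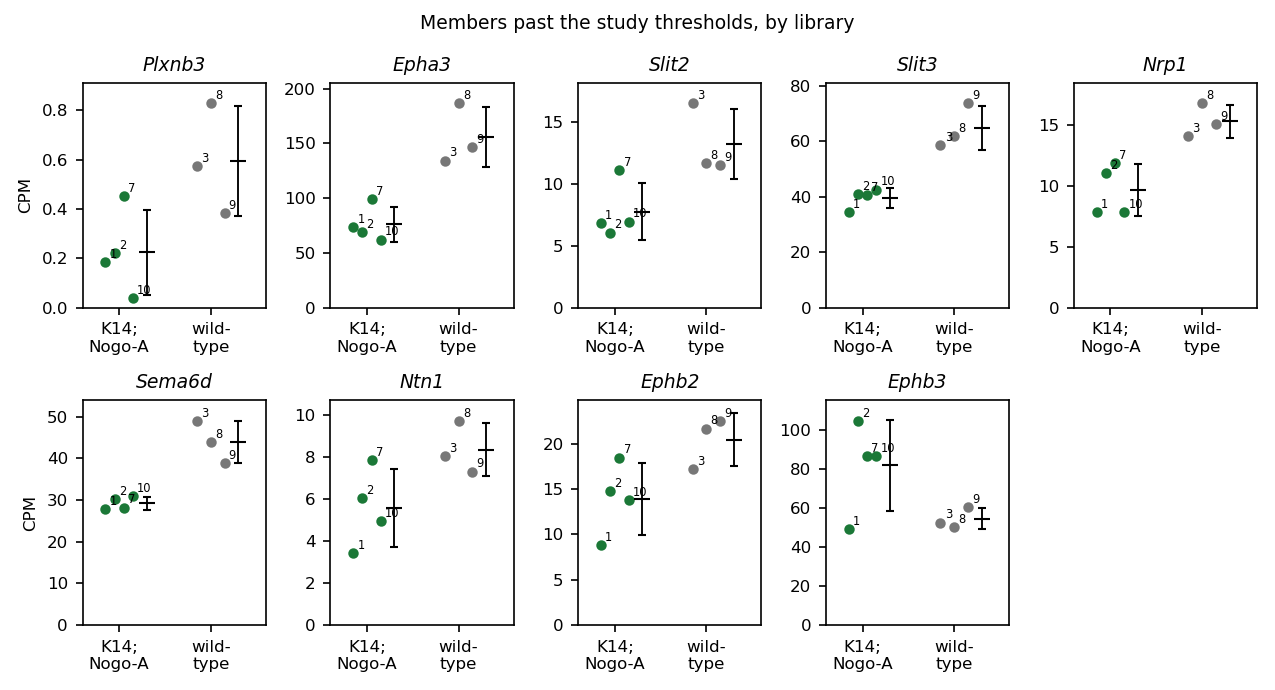
CPM in each library of the 9 guidance genes past the study's thresholds, green for the 4 K14;Nogo-A and grey for the 3 wild-type libraries, numbered by replicate, and black bars for the mean and SD. In Epha3, Slit2, Slit3, Nrp1 and Sema6d the genotypes do not overlap, and in Ephb3 K14;Nogo-A replicate 1 lies below the wild-type values while the other 3 lie above.

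The netrin genes differed in the low-expressed Ntn1. Ntn1 (ENSMUSG00000020902, chromosome 11 from 68209364 to 68400823), the secreted cue netrin-1, was at 3.42, 6.06, 7.85 and 4.96 CPM in K14;Nogo-A against 8.02, 9.72 and 7.30 CPM in wild-type. Replicate 7 overlapped the wild-type range. Its log2 fold change was -0.58 ± 0.24 (adjusted p = 0.34), and it missed the thresholds once replicate 1 (-0.41) or 10 (-0.53) of K14;Nogo-A or replicate 3 (-0.61) or 8 (-0.45) of wild-type was left out. Ntn4, a basement membrane netrin that held 84.9% of the summed netrin level, had -0.10 ± 0.14. Ntng1, a membrane-anchored netrin-G, had -0.47 ± 0.17. It had -0.24 without wild-type replicate 8, and came past the thresholds when replicate 2 of K14;Nogo-A (-0.56) or replicate 3 (-0.52) or 9 (-0.60) of wild-type was left out. Ntn5 shares 519 of its 2216 exon bases with Sec1 on the opposite strand, and since it is not known whether strand was used in counting, its value of 0.31 ± 0.28 is uncertain. Exon overlaps with other genes were shorter in Epha1 (236 bases), Plxnc1 (115), Unc5a (34) and Ephb4 (33), and the other 64 guidance genes had none.

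The netrin receptor genes Unc5b and Neo1 were among the most abundant guidance genes, and no netrin receptor was past the thresholds in the fit of all 7 libraries. Unc5b was at 578, 595, 568 and 667 CPM in K14;Nogo-A against 635, 511 and 705 CPM in wild-type, with a log2 fold change of -0.04 ± 0.12. Neo1 was at 231, 303, 302 and 337 CPM against 308, 318 and 357 CPM (-0.16 ± 0.13). Unc5c was at 37.7 to 47.2 CPM against 40.6 to 69.7 CPM (-0.37 ± 0.16, adjusted p = 0.36). It had -0.19 without wild-type replicate 3, and -0.55, past the thresholds, without wild-type replicate 9. The ligands of neogenin, Rgma and Rgmb, were low, at 3.2 and 1.85 CPM per kilobase, and had -0.05 ± 0.17 and 0.14 ± 0.17. Unc50, counted by its name, was at 45.6 to 49.7 CPM against 40.7 to 45.1 CPM (0.15 ± 0.09).

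The lower guidance genes also varied among the K14;Nogo-A libraries. As the median over the 8 lower genes, the deviation of log2 CPM from each gene's mean over the 7 libraries was -0.53, -0.23, 0.12 and -0.41 in the K14;Nogo-A libraries and 0.35, 0.48 and 0.32 in wild-type. By this median replicate 7 was the highest of the K14;Nogo-A libraries. Over all 69 genes K14;Nogo-A replicate 1 stood lowest, at -0.23, and wild-type replicate 9 highest, at 0.14. The other 5 libraries lay between 0.01 and 0.02.

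The differences were also taken within the libraries that held Y-linked transcripts (1 K14;Nogo-A, 2 wild-type) and within those that did not (3 and 1). The 8 lower genes, chosen as lower in these same libraries, had a negative log2 difference in both sets. In Epha3, Slit3, Slit2, Nrp1 and Sema6d the genotypes do not overlap, so any such split gives a negative sign. For Epha3 the log2 difference was -1.10 in the first set and -0.96 in the second. It was -0.81 and -0.83 for Slit3, -1.01 and -0.57 for Slit2, -0.96 and -0.57 for Nrp1, and -0.74 and -0.38 for Sema6d. Ntn1 had -1.35 and -0.24. Ephb3 had -0.06 in the libraries with Y-linked transcripts and 0.61 in those without. With 1 library on one side these differences carry no test.

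Mesenchyme markers had negative log2 fold changes as well, as the plot of marker lists shows. Within K14;Nogo-A their mean log2 CPM was 7.87, 7.62, 7.72 and 7.86. The 8 lower guidance genes had median deviations of -0.53, -0.23, 0.12 and -0.41 in these libraries. Replicates 1 and 10 were highest in the markers and lowest in this median, but single genes differed in their order. Replicate 10 was the lowest K14;Nogo-A library for Epha3 (62.2 CPM) and the highest for Slit3 (42.6 CPM) and Sema6d (30.9 CPM). The part of mesenchyme cells in these values was not tested. With the mean log2 CPM of the mesenchyme markers as a covariate, 5 guidance genes were lower and 0 higher past the study's thresholds. Of all 14791 genes tested, 408 were lower and 204 higher in this fit. At an adjusted p under 0.05 edgeR's quasi-likelihood test called 0 genes in it, and the smallest adjusted p of a guidance gene was 0.94. Among the 5 lower guidance genes were Rgma and Sema5b, which were not past the thresholds without the covariate. Of the 9 named above, Slit3 (-1.09), Nrp1 (-1.43) and Ephb2 (-1.48) were still past the thresholds, and Epha3 (-1.05), Slit2 (-0.80), Sema6d (-0.46), Ntn1 (-1.34) and Plxnb3 (-1.66) kept their sign but not the call. Ephb3 turned to -0.65. Since K14;Nogo-A and wild-type share no part of the range of this covariate, the fit extrapolates from one genotype to the other. With it the SE was 0.49 for Nrp1 and 0.58 for Ephb2, against 0.17 and 0.21 in the fit without a covariate. With the level of Y-linked genes as covariate 8 guidance genes were lower and 0 higher, against 361 and 203 of all 14791 genes tested. In that fit Slit3 reached an adjusted p of 0.0098 (4.9e-05 to 0.94 over its alternatives, edgeR, DESeq2 and limma-voom), and Ephb3 had a log2 fold change of 0.31. The fold changes of the 9 genes under the alternatives are drawn in the plot of alternatives.

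**Figure D4:**
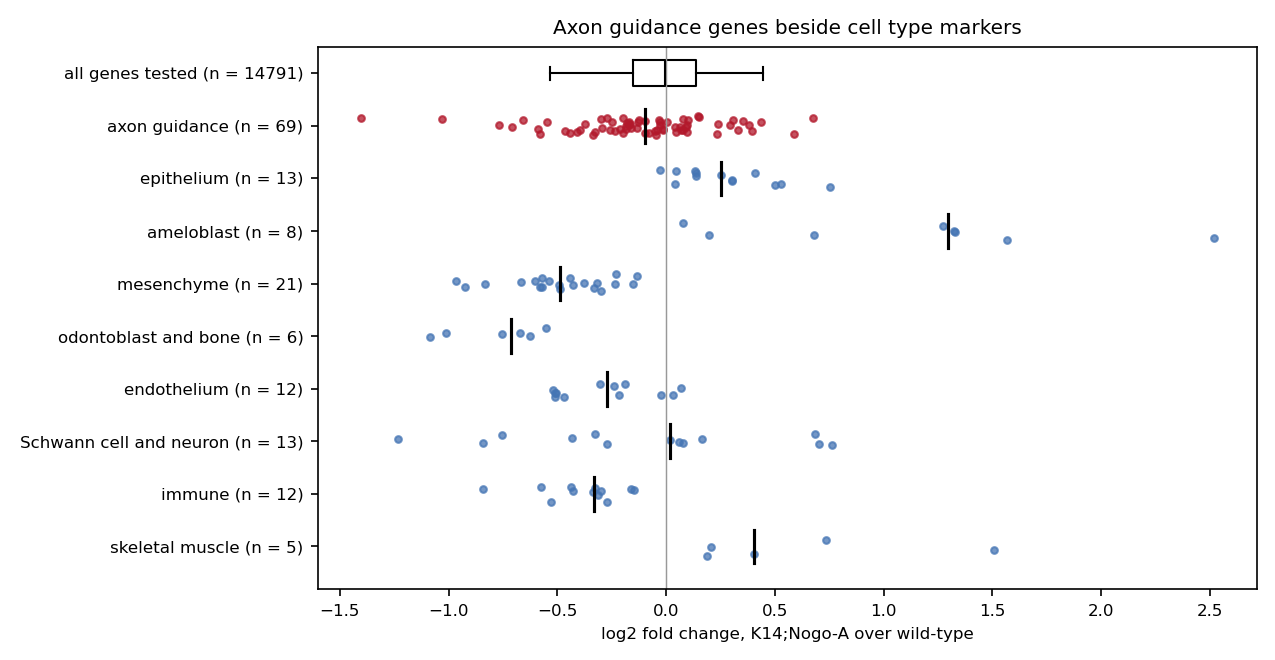
Log2 fold changes (horizontal axis), K14;Nogo-A over wild-type, of the 69 guidance genes in red and of the tested genes of 8 cell type marker lists in blue, with black bars for the medians and a box for all 14791 genes tested (median and quartiles, whiskers from the 5th to the 95th percentile). The guidance genes spread from -1.40 to 0.68 around a median of -0.10, and the mesenchyme markers lie to the left of 0 with a median of -0.49.

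**Figure D5:**
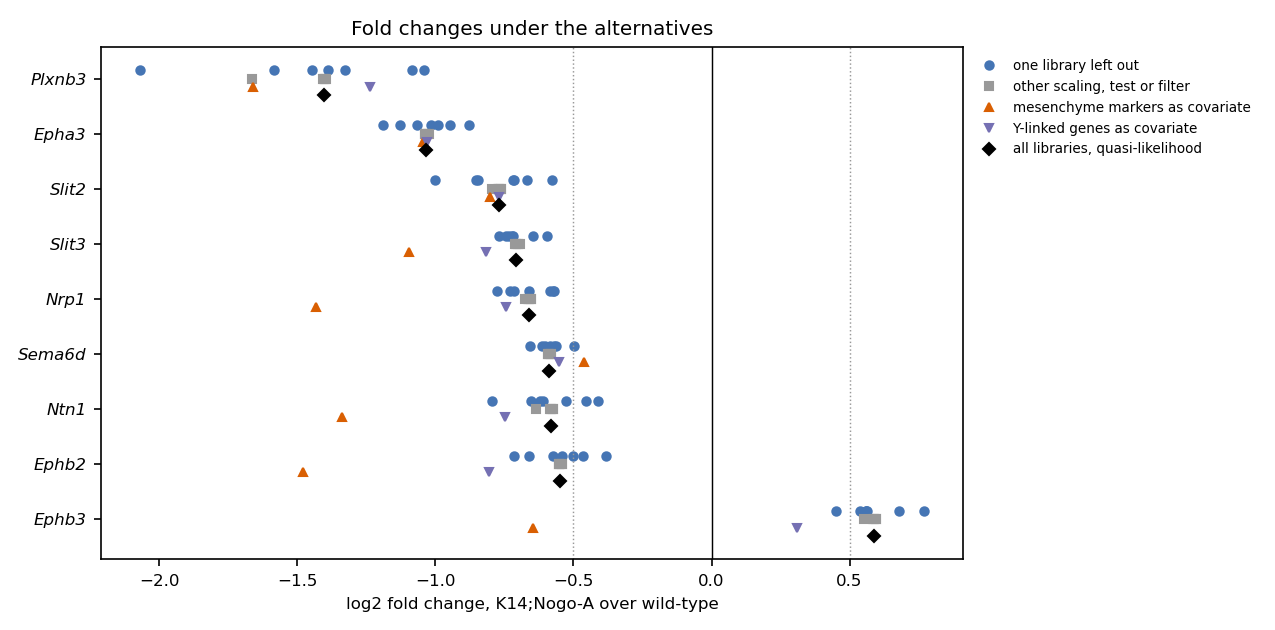
Log2 fold change (horizontal axis) of the 9 guidance genes past the study's thresholds in the fit with all libraries (black), with 1 library left out (blue), with another scaling, test or filter (grey) and with mesenchyme markers (orange) or Y-linked genes (purple) as a covariate. Epha3 stays at -0.88 or below in these fits, and Ephb3 lies at -0.65 with the mesenchyme covariate.

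Sequence upstream of the transcription start was read for the guidance genes from RefSeq promoters on GRCm38.p6, which were found for 59 of the 69 genes, with 77 promoters. Shown are 3 lower genes with no overlap between the genotypes (Slit2, Sema6d and Epha3) and the single higher gene, up to 250 bases 5′ to 3′ on the gene's strand and cut where an annotated exon begins. Capitals mark the GC box GGGCGG, which Sp1-type factors bind, the E-box CACCTG of Snail and Zeb factors and the TATAAA box, each searched on both strands. The stretches lie at chr5:47982905-47983137 (+) for Slit2, chr2:124089719-124089968 (+) for the distal promoter of Sema6d, chr16:63864176-63864425 (-) for Epha3 and chr16:21204545-21204754 (+) for Ephb3.
Slit2: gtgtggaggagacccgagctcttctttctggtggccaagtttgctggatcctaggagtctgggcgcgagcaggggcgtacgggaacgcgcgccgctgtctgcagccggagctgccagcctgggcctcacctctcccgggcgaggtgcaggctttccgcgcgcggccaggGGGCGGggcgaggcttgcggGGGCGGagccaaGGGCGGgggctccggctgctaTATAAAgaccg
Sema6d: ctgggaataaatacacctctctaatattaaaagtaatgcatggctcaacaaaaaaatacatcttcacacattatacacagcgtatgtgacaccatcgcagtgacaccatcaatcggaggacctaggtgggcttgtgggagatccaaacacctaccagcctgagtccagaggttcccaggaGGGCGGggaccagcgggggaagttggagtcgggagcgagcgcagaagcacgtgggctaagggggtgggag
Epha3: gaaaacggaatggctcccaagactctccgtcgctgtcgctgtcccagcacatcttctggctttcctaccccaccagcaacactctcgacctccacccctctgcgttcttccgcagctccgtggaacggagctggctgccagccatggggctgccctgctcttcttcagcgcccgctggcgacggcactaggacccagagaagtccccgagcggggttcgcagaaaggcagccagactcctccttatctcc
Ephb3: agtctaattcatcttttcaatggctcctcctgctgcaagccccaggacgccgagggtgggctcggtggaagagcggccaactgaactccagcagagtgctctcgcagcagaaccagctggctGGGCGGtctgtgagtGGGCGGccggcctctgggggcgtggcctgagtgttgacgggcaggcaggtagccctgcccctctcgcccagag
The Slit2 stretch held 3 GC boxes and a TATAAA box and was 70.4% G or C. The Sema6d stretch held 1 GC box, the Ephb3 stretch 2, and the Epha3 stretch none of the motifs. Another Sema6d promoter, at chr2:124653331-124653580 and not shown, held no GC box but 1 E-box and was 45.2% G or C. Over the 77 promoters of guidance genes 68.8% held a GC box, against 56.4% of the 14333 promoters of tested genes. The E-box was in 13.0% against 16.2%, TATAAA in 5.19% against 6.51%, and the heat shock element core GAANNTTC in 0 of 77 against 5.0%. The median G and C content was 64.4% against 59.6%. These are matches of letters in the window of 250 bases, and binding was not measured.

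Further genes of the pathways, from lists of other cues and receptors and of cytosolic effectors, differed in few members. Of 83 tested genes 4 were lower and 0 higher past the study's thresholds (4.82% lower, against 2.74% of all genes tested, and 0% higher, against 2.02%), with a median of -0.06, and edgeR's quasi-likelihood test called 0 at an adjusted p under 0.05. Taking the unadjusted p, 5 higher (6.02%, against 6.25%) and 10 lower genes (12.0%, against 6.66%) were under 0.05. Nrcam, an adhesion molecule that associates with neuropilins, was at 2.72, 1.90, 1.39 and 2.33 CPM in K14;Nogo-A against 3.27, 4.65 and 3.31 CPM in wild-type, without overlap (-0.86 ± 0.25, adjusted p = 0.24). Flrt3, a transmembrane protein that binds Unc5 receptors, was at 13.2, 9.02, 6.03 and 6.75 CPM against 14.4, 19.7 and 8.84 CPM, with overlap (-0.73 ± 0.31). Crmp1, a mediator of Sema3a signalling inside the cell, was at 10.6, 4.99, 4.74 and 9.99 CPM against 10.6, 13.2 and 15.2 CPM, just without overlap (-0.78 ± 0.29), and the small GTPase gene Rnd1, whose product binds plexins, had under 1 CPM in each library (-0.77 ± 0.33). Flrt3 missed the thresholds without replicates 2 (-0.74), 7 (-0.58) or 10 (-0.62) of K14;Nogo-A or 3 (-0.72) or 8 (-0.43) of wild-type, and Crmp1 when replicate 2 of K14;Nogo-A (-0.63) or replicate 8 (-0.76) or 9 (-0.65) of wild-type was left out. Rnd1 missed them whenever a library other than K14;Nogo-A replicate 1 was left out (-0.86 to -0.66). None of the 16 Eph and ephrin effectors or the 19 Robo and netrin effectors was past the thresholds. With the mesenchyme covariate Nrcam (0.36), Flrt3 (0.65) and Crmp1 (0.60) turned positive.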

How the data were processed

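RNA sequencing was done on the dental epithelium of the lower incisors of 7 newborn pups, 4 K14;Nogo-A and 3 wild-type. From single-end, poly(A)-selected TruSeq libraries the authors made raw counts, which were deposited per Ensembl gene. The submitters' processing notes name bcl2fastq 2.19, Trimmomatic, STAR 2.7.1 and featureCounts on GRCm38, and the annotation was Ensembl release 91. Whether strand was used in counting is not stated in these sources. Groups were taken from the sample labels. Totals were 20929207 to 41219439 counts per library, so that genes of few counts, such as Plxnb3, are measured with less precision than abundant ones. The biological coefficient of variation (common value) was 15.2%. No pair of libraries agreed within counting noise (smallest chi-square per degree of freedom 16.6).

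Gene IDs were joined to symbols, coordinates and exon lengths of GENCODE M21, and 36 IDs without a symbol held 0.0348% of all counts. A gene entered the test where 50% or more of the K14;Nogo-A or of the wild-type libraries had 10 counts or more (14791 of 25700). The fit used edgeR 4.0.16 in R 4.3.3, TMM scaling and the robust quasi-likelihood test with no covariate, and p-values were adjusted by Benjamini-Hochberg over the 14791 genes. Of the study's fold threshold of 0.5, given in one place as linear and in another as log2, the log2 form was used. CPM used TMM library sizes, log2 CPM a prior count of 2, and CPM per kilobase the union of annotated exons. Each library is 1 pup, so p-values rest on the spread between pups, and litters are not named.

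The guidance genes, the marker lists and the lists of other pathway genes were chosen with earlier results of these data known, so the counts of a list are descriptions and no list was tested. Genes named in detail are Rtn4, those past the study's thresholds, in each class the most abundant one per kilobase and the one with the smallest P, and up to 4 past the thresholds in each list of other pathway genes. Further members are given as members of their class. Alternatives were RLE factors, the likelihood-ratio test, DESeq2 1.42.0, limma-voom (limma 3.58.1), no filter, filterByExpr, each library left out in turn, and mesenchyme markers or the level of Uty, Kdm5d, Eif2s3y and Ddx3y, which are Y-linked, as a covariate. The differences within libraries with and without Y-linked transcripts were added after seeing the data. All tests were first run on simulated counts. Motifs were searched in the 250 bases before RefSeq transcript starts.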

Additional observations from a re-analysis of the deposited data

Results flagged for a closer look

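Of 70 genes checked within the K14;Nogo-A libraries, 1 had a library far from the others. Ephb4 was at 112 CPM in K14;Nogo-A replicate 1 and at 149 to 154 CPM in the other 3, a gap of 0.871 of the whole range, which is above Dixon's critical value for 4 libraries. Chance gives such a gap in about 1 of 20 groups. Over all 69 guidance genes the same library had the lowest median deviation, -0.23 on the log2 scale.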

How the results depend on the processing

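No paired analysis was possible because the sample labels do not name the litter of each pup. The log2 fold change of each of 37 genes was recomputed under 15 alternatives. Of the 555 recomputed values 473 kept direction and side of the threshold, 7 came past it, 42 lost it and 33 changed sign. Nrp1 and Slit3 were past the study's thresholds under all 15 alternatives, and Epha3 and Slit2 under all but the mesenchyme covariate. The count of guidance genes at an adjusted p under 0.05 was 0, against 5 of all 14791 genes tested. Calls over all genes tested are given in brackets. The count was 4 by the likelihood-ratio test (166), 5 by DESeq2 (288), 3 without a filter (21 of 19064) and 1 with the Y-linked covariate (9). With 1 library left out it was 0 to 4. It was 4 without K14;Nogo-A replicate 1 (221 of 14771), of which Ephb3 was higher and 3 were lower. It was 1 without replicate 7 (1 of 14734) and 2 without wild-type replicate 9 (93 of 15161). The count of higher genes past the study's thresholds was 1, against 299 of all genes tested. It was 0 with the mesenchyme covariate (204 of all genes) and with the Y-linked covariate (203). With 1 library left out it was 0 to 3. The 3 were Ephb3, Plxna4 and Sema4f without K14;Nogo-A replicate 1 (454). It was 0 without K14;Nogo-A replicates 2 (226) or 10 (326) or wild-type replicates 3 (296) or 8 (146). The count of lower genes was 8, against 406 of all genes tested, and 5 with the mesenchyme covariate (408). With 1 library left out it was 5 to 10, at 5 without wild-type replicate 8 (240) and 10 without wild-type replicate 9 (534). The median of -0.10 was -0.46 with the mesenchyme covariate, -0.18 with the Y-linked covariate and -0.15 to -0.02 with 1 library left out (36 to 49 of 69 negative). That covariate, whose values do not overlap between the genotypes, reversed Crmp1 (0.60), Efna2 (0.18), Ephb3 (-0.65), Ephb4 (-0.32), Flrt3 (0.65), Nrcam (0.36), Plxna4 (-1.58), Rgmb (-0.18), Rtn4 (-0.32), Sema4c (0.41), Sema4f (-0.39) and Unc5c (0.0606). Limma-voom reversed Ephb4 (-0.0063) and Rgma (0.0108), and the Y-linked covariate Efna1 (-0.0206), Ephb4 (-0.10) and Rgmb (-0.0193). With 1 library left out, values changed sign in Efna1 (-0.0185 to 0.20), Epha2 (-0.11 to 0.12), Ephb4 (-0.0365 to 0.10), Plxna1 (-0.25 to 0.00077), Plxnb2 (-0.10 to 0.10), Rgma (-0.17 to 0.18), Sema4c (-0.0826 to 0.0585) and Unc5b (-0.15 to 0.0829), all close to 0. The cause of these changes was not tested.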
